A study of Mus musculus with 9 samples.

Results

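The cluster of miR-221 and miR-222 was followed in exosomes, the small vesicles that cells shed into their medium, from RAW264.7 cells, an established mouse macrophage line. Its 4 members are the mature miRNAs mmu-miR-222-3p, mmu-miR-221-3p, mmu-miR-222-5p and mmu-miR-221-5p, chosen by name, out of the 1101 mature miRNAs of the series. All 4 had counts in all 9 libraries and passed the filter on low counts, which kept 453 miRNAs. Vesicles came from untreated cells, from cells given silica for 24 h and from cells given silica for 48 h, each group having 3 libraries. All cells were grown in medium with fetal bovine serum, which carries vesicles of its own, and no silica dose or culture time of the untreated cells was stated. Silica is the mineral dust whose inhalation causes silicosis, and the study asked how it changes the vesicle miRNA of macrophages.

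A miRNA hairpin gives a mature miRNA from each arm, named 5p and 3p, and usually 1 arm is loaded and kept while the other is mostly degraded. In this cluster the 3p arms are the guides. miR-221-3p and miR-222-3p are made from neighbouring hairpins of a shared primary transcript and are known to repress the cell cycle inhibitor Cdkn1b and the receptor Kit. In mouse macrophages prolonged lipopolysaccharide exposure raises miR-222-3p, which represses the chromatin remodeller Brg1.

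The 3 mature sequences found in RefSeq (GRCm38.p6, the mm10 assembly) are shown because the guides share the bases that choose their targets; capitals mark the seed, bases 2 to 8.
mmu-miR-222-3p: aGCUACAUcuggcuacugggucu
mmu-miR-221-3p: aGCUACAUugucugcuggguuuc
mmu-miR-221-5p: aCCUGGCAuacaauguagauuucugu
The guides shared their first 8 bases and 11 of 23 positions when set side by side without gaps, counted from 1 at the 5′ end. They differed at every position from U9C to G17U, with miR-221-3p named first. Beyond these they also differed at U20G, U22C and C23U. Of 1679 mature names in the RefSeq table, 3 had the seed GCUACAU. The third was miR-1928, which had 0 counts in all 9 libraries, which allows a level of up to 0.313 CPM in the deepest library and 1.56 CPM in the shallowest (3 counts, on the TMM scale of the levels below). The seed of miR-221-5p was found in no other name of that table.

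The hairpins are shown with those mature arms in capitals, so that their place in each precursor can be read.
Mir221: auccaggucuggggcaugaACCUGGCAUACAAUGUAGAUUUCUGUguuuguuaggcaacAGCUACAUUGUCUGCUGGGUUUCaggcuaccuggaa
Mir222: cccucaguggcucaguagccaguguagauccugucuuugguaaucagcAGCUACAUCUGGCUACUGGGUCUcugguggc
Mir221 lies at chrX:19146294-19146388 and Mir222 at chrX:19146893-19146971, both on the minus strand, with 504 bases between them. Neither hairpin overlaps another annotated gene in GENCODE M21, and the nearest protein-coding gene, Tex13c3, is 332449 bases away.

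Mature miRNA accounted for 2158418 to 8331451 counts a library. Levels are given as CPM, the counts per 1000000 of mature miRNA after scaling by the trimmed mean of M-values (TMM). Untreated library 2 and 48 h library 2 stood apart from the other 7, so the fold changes of the members are also given without them. These 2 libraries listed 829 and 912 mature miRNAs, against 486 to 713 in the other 7. Library 2 of the 24 h group leaned the same way within its group, less far. It listed 713, against 595 and 486 in 24 h libraries 1 and 3. Its miR-221-3p was the highest of that group (5994 CPM) and its miR-222-3p the lowest (45737 CPM). It was kept when the other libraries numbered 2 were left out. Of the macrophage and haematopoietic markers, miR-146a-5p averaged 49713 CPM over the 9 libraries, miR-21a-5p 37924 CPM and miR-155-5p 800 CPM, while miR-223-3p averaged 126 CPM and miR-142a-3p 74.2 CPM. All 9 listed markers of that class were found in at least 1 library. Because these are libraries of whole vesicle preparations, fewer vesicles of a kind and less RNA per vesicle cannot be told apart. No source says how the repetitions of a group were grown, beyond calling them independent, so p-values measure the spread between these libraries.

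The cluster took 4.73% to 7.82% of all mature counts of a library, and nearly all of it was guide strand. In untreated library 1, the lowest, the share was 4.73% (Wilson 95% interval 4.71% to 4.75%), and in 48 h library 2, the highest, 7.82% (7.80% to 7.84%), with intervals that cover counting error only. The shares of the 3 untreated libraries were 4.73%, 5.84% and 5.64%, those at 24 h 6.96%, 5.92% and 7.22%, and those at 48 h 4.79%, 7.82% and 6.24%. In this share all 24 h libraries lay above all untreated ones, the closest being 5.92% and 5.84%. The 48 h libraries spanned both. These shares take no TMM factor, and the order did not hold on the TMM scale. There both guides were lower in 24 h library 2 than in untreated library 3. The levels were 45737 against 49454 CPM for miR-222-3p and 5994 against 6454 CPM for miR-221-3p. Of the 453 single miRNAs, 10.6% had every 24 h share above every untreated share. The sum of the 4 members was not tested.

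miR-222-3p was the fourth most abundant miRNA by its mean over the libraries and one of the 11 most abundant in each of them. Its level was 44960, 26864 and 49454 CPM in the untreated libraries 1 to 3. At 24 h it was 67315, 45737 and 74994 CPM, and at 48 h 46746, 37068 and 55982 CPM. The 24 h libraries 1 and 3 were the highest of all, library 2 was the lowest of each treated group as of the untreated one, and the groups overlapped. The means were 40426 ± 11958 CPM for the untreated libraries, 62682 ± 15169 for 24 h and 46599 ± 9458 for 48 h (SD, n = 3).

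miR-221-3p was the less abundant guide, at place 24 by its mean, and its libraries differed far more. Its level was 4759, 23186 and 6454 CPM in the untreated libraries, 4331, 5994 and 5133 CPM at 24 h and 10053, 30985 and 6632 CPM at 48 h. Untreated library 2 and 48 h library 2 were the highest by far, and the 3 libraries of 24 h were close together. The means were 11467 ± 10185 CPM for the untreated libraries, 5153 ± 832 for 24 h and 15890 ± 13184 for 48 h (SD, n = 3). The SD was 0.161 of the mean at 24 h, against 0.888 in untreated and 0.83 at 48 h.

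The passenger arm miR-222-5p stood at 454, 149 and 568 CPM in untreated, 474, 488 and 652 CPM at 24 h and 676, 162 and 385 CPM at 48 h. The lowest of the 9 were again untreated library 2 and 48 h library 2, here on the opposite side from miR-221-3p. Its means were 390 ± 217, 538 ± 98.5 and 408 ± 258 CPM for untreated, 24 h and 48 h (SD, n = 3).

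The other passenger, miR-221-5p, was the scarcest member, with 51 to 1108 counts per library. It stood at 123, 116 and 17.9 CPM in untreated, 13.2, 184 and 51.8 CPM at 24 h and 289, 80.0 and 38.3 CPM at 48 h. Each group held libraries that differed several-fold, and the groups overlapped throughout. Its means were 85.8 ± 58.9, 82.9 ± 89.4 and 136 ± 134 CPM for untreated, 24 h and 48 h (SD, n = 3).

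**Figure D1:**
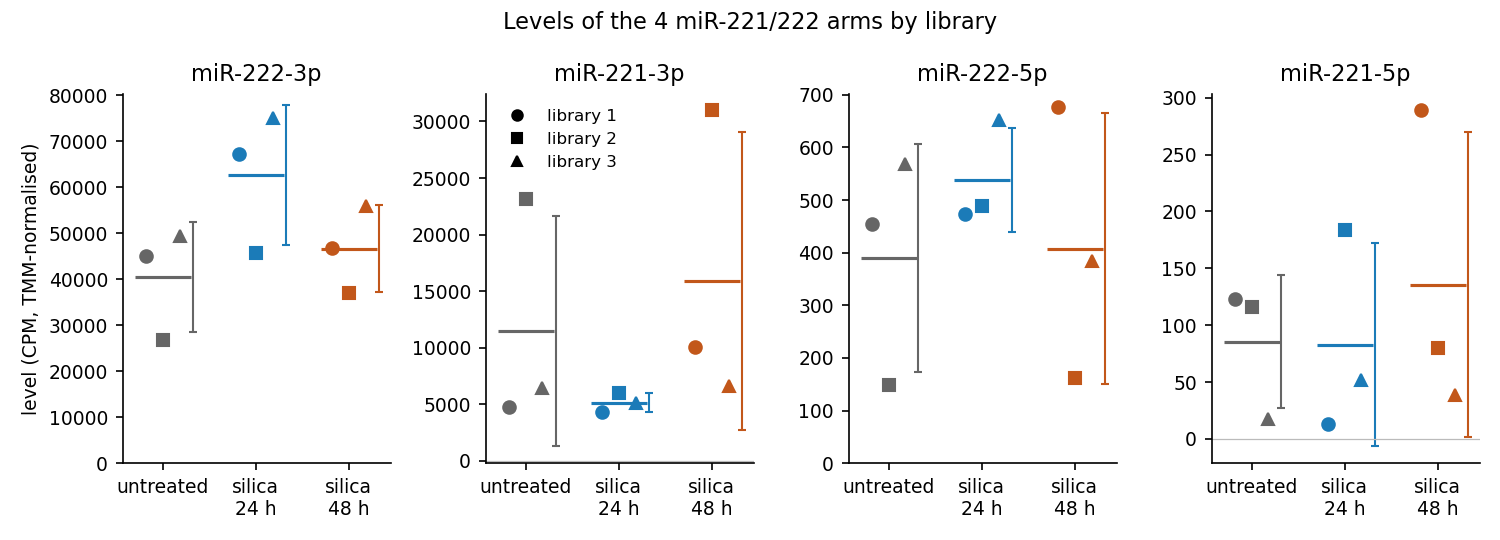
Levels of the 4 members in CPM (linear axes, each with its own range) for every library; the marker shape gives the library number, horizontal lines the group mean and bars 1 SD (n = 3). Library 2 of the untreated and of the 48 h group is highest for miR-221-3p (23186 and 30985 CPM) and lowest for miR-222-3p (26864 and 37068 CPM).

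Vesicles of cells exposed for 24 h were set against those of untreated cells to see the effect of the shorter exposure. The guides pointed in opposite directions, and 0 of the 4 members passed the threshold of 0.05 (edgeR quasi-likelihood p, Benjamini-Hochberg adjusted over all 453), as did 0.0% of all miRNAs. miR-222-3p had a log2 fold change of 0.63 ± 0.35 (SE; 95% interval -0.14 to 1.40; edgeR adjusted p = 0.543), and 0.44 without untreated library 2. miR-221-3p had -1.15 ± 0.68 (-2.64 to 0.33; edgeR adjusted p = 0.567), but -0.09 without untreated library 2, the library with its highest untreated level. For the passengers the log2 fold changes were 0.46 ± 0.65 for miR-222-5p (edgeR adjusted p = 0.838) and -0.05 ± 1.02 for miR-221-5p (0.977), and the sign of the latter changed under upper-quartile scaling. Without untreated library 2 they were 0.10 and 0.28, and without both libraries that stood apart the 4 values were 0.42, -0.11, 0.09 and 0.24 for miR-222-3p, miR-221-3p, miR-222-5p and miR-221-5p. Over all miRNAs 46 had an unadjusted p under 0.05, none of them a member, and DESeq2 called 4 and limma-voom 0, again no member.

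Markers of other sources were also compared between the groups. The summed level of the 6 serum, liver and erythroid markers was 2647 to 5329 CPM at 24 h, 696 to 2090 in untreated and 1576 to 1683 at 48 h, and all 6 were found in at least 1 library. Of the 5 tested, 4 were higher and 1 was lower at 24 h than in untreated, with a median log2 fold change of 0.94, against -0.07 over all 453 miRNAs, and 0 were called. The median was higher still for the endothelial and mesenchymal markers, at 1.09 with 5 of 7 tested higher and 2 lower. It was -0.54 for the epithelial markers (2 of 7 higher and 5 lower) and -0.35 for the macrophage and haematopoietic markers (2 of 8 higher and 6 lower), again with 0 called. The 8 endothelial and mesenchymal markers summed to 619 to 1572 CPM at 24 h, 513 to 2252 in untreated and 458 to 1214 at 48 h, and the 8 epithelial markers to 167 to 277, 245 to 307 and 203 to 329 CPM. All of these were found in at least 1 library. The 9 macrophage and haematopoietic markers summed to 65250 to 81248 CPM at 24 h, 87949 to 103035 in untreated and 85195 to 110816 at 48 h, most of it miR-146a-5p and miR-21a-5p. Some markers behind these medians were scarce or uneven over the libraries. In the serum, liver and erythroid list miR-122-5p averaged 1154 and miR-451a 1016 CPM, but miR-486a-5p 5.13 and miR-486b-5p 4.65 CPM. In the endothelial and mesenchymal list miR-214-3p averaged 3.24 CPM, and miR-199a-3p ran from 9.68 to 1526 CPM. The summed levels were scaled by mature totals alone, and the part of these other sources in the miR-222-3p level was not tested. When levels were scaled by mature totals alone, the 24 h libraries of miR-222-3p (51694 to 67043 CPM) lay above the untreated ones (31203 to 49344 CPM), as 10.6% of all miRNAs did.

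At 48 h against untreated, all 4 members had small differences beside their spread. The log2 fold changes were 0.21 ± 0.35 for miR-222-3p and 0.47 ± 0.67 for miR-221-3p (SE), with 95% intervals of -0.56 to 0.97 and -1.0 to 1.94. They were 0.06 ± 0.65 for miR-222-5p and 0.66 ± 1.02 for miR-221-5p, with intervals of -1.37 to 1.49 and -1.58 to 2.90. The edgeR adjusted p was 0.997 for each, 0 of 4 members were called, and 0.0% of all miRNAs were. DESeq2 called 1 miRNA here, not a member, and limma-voom 0. Each group here holds 1 of the libraries that stood apart. The value for miR-221-3p was -0.52 without 48 h library 2, 1.52 without untreated library 2 and 0.57 without both. Without both, the other values were 0.12 for miR-222-3p, 0.05 for miR-222-5p and 1.21 for miR-221-5p. The signs of the other 3 members also changed when 1 library was left out, and that of miR-222-5p changed with mature totals (-0.05) or all counted reads (-0.04) as the scale.

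The direct comparison of the exposures gave the largest fold change among the members. miR-221-3p was at 6632 to 30985 CPM at 48 h and at 4331 to 5994 CPM at 24 h, so that the groups did not overlap, as was true in the same direction for 10.4% of all miRNAs. Its log2 fold change of 48 h against 24 h was 1.62 ± 0.69 (SE; 95% interval 0.12 to 3.13) with an unadjusted edgeR p of 0.0367, where 9.71% of all miRNAs had one under 0.05, and an edgeR adjusted p of 0.458. It thus did not pass, and without 48 h library 2 the log2 fold change was 0.68. The gap between the groups was narrow: with mature totals alone the libraries overlapped (6568 against 6775 CPM at the edge). Over its alternatives the adjusted p ran from 0.0514, when edgeR was given all miRNAs unfiltered, to 0.907.

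The other members pointed both ways between the exposures. miR-222-3p had a log2 fold change of -0.43 ± 0.35 (edgeR adjusted p = 0.621), miR-222-5p -0.40 ± 0.65 (0.799) and miR-221-5p 0.71 ± 1.02 (0.783). Without both libraries that stood apart these were -0.31, -0.03 and 0.97, and the value for miR-222-5p was also -0.03 without 48 h library 2 alone. Here too 0 of 4 members and 0.0% of all miRNAs were called, with 44 at an unadjusted p under 0.05, of which miR-221-3p was the only member. DESeq2 called 6 miRNAs and limma-voom 0, none of them a member.

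**Figure D2:**
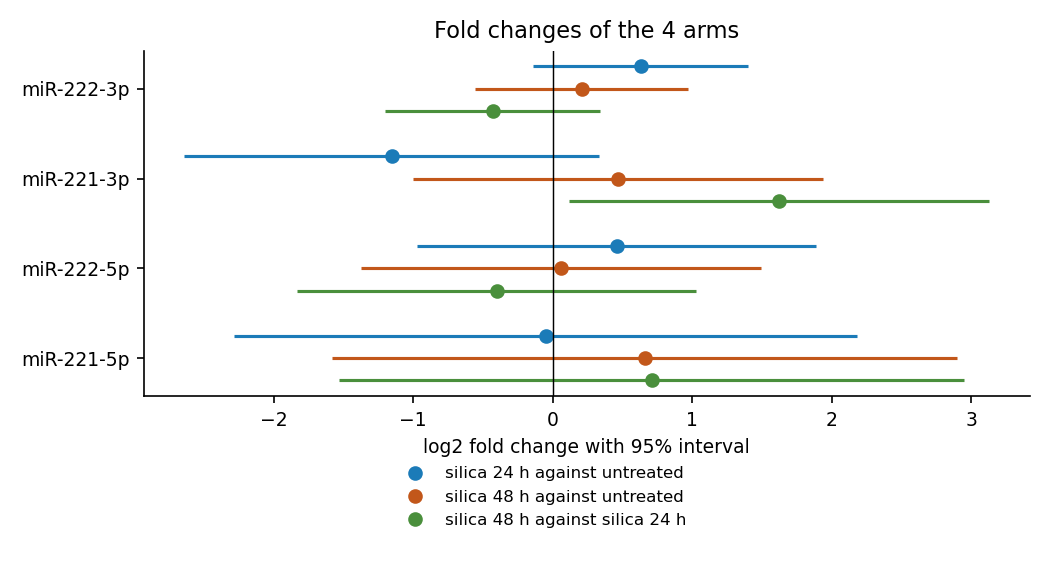
Log2 fold changes (points) with 95% intervals (lines) of the 4 members from edgeR in the 3 comparisons. The interval lies off 0 only for miR-221-3p between 48 h and 24 h (0.12 to 3.13), before adjustment over 453 miRNAs.

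Ratios of members within a library need no scaling between libraries. There were 9.45, 1.16 and 7.66 reads of miR-222-3p per read of miR-221-3p in the untreated libraries, 15.5, 7.63 and 14.6 at 24 h and 4.65, 1.20 and 8.44 at 48 h. The guides were thus nearly equal in untreated library 2 and 48 h library 2, while miR-222-3p led by 4.65-fold to 15.5-fold in the other 7. In those 2 libraries miR-221-3p made up 46.1% and 45.4% of the cluster's counts, against 6.0% to 17.4% elsewhere. The mean log2 ratio was 2.13 ± 1.67 for untreated, 3.59 ± 0.57 for 24 h and 1.85 ± 1.44 for 48 h (SD, n = 3). It was higher by 1.46 at 24 h than in untreated (two-sided exact permutation p = 0.3) and by 0.50 without untreated library 2, and the 48 h mean was below the 24 h mean (difference -1.74, exact permutation p = 0.2, and -0.94 without 48 h library 2). Between 48 h and untreated the difference was -0.28 (exact permutation p = 0.8).

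Within each hairpin the guide outnumbered its passenger in every library, by 69.2-fold to 229-fold for Mir222 and by 32.6-fold to 388-fold for Mir221. For Mir222 the ratio of 3p to 5p was 98.9, 180 and 87.1 in untreated, 142, 93.7 and 115 at 24 h and 69.2, 229 and 145 at 48 h, and its highest values were again those of untreated library 2 and 48 h library 2. For Mir221 it was 38.5, 200 and 360 in untreated, 329, 32.6 and 99.0 at 24 h and 34.8, 388 and 173 at 48 h, so that libraries of a single group spread about as widely as all 9. The mean log2 ratio for Mir222 was 6.85 ± 0.56, 6.85 ± 0.30 and 7.04 ± 0.87 in untreated, 24 h and 48 h, and for Mir221 7.13 ± 1.67, 6.67 ± 1.66 and 7.05 ± 1.77 (SD, n = 3).

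The passengers did not keep a fixed ratio either. There were 3.68, 1.28 and 31.7 reads of miR-222-5p per read of miR-221-5p in untreated, 36.0, 2.66 and 12.6 at 24 h and 2.34, 2.02 and 10.1 at 48 h. Over the 4 ratios and 3 comparisons, 12 two-sided exact permutation tests gave p of 0.2 to 1, and the lowest value after Benjamini-Hochberg adjustment was 0.873. With 3 libraries against 3 such a test cannot give a p under 0.1.

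**Figure D3:**
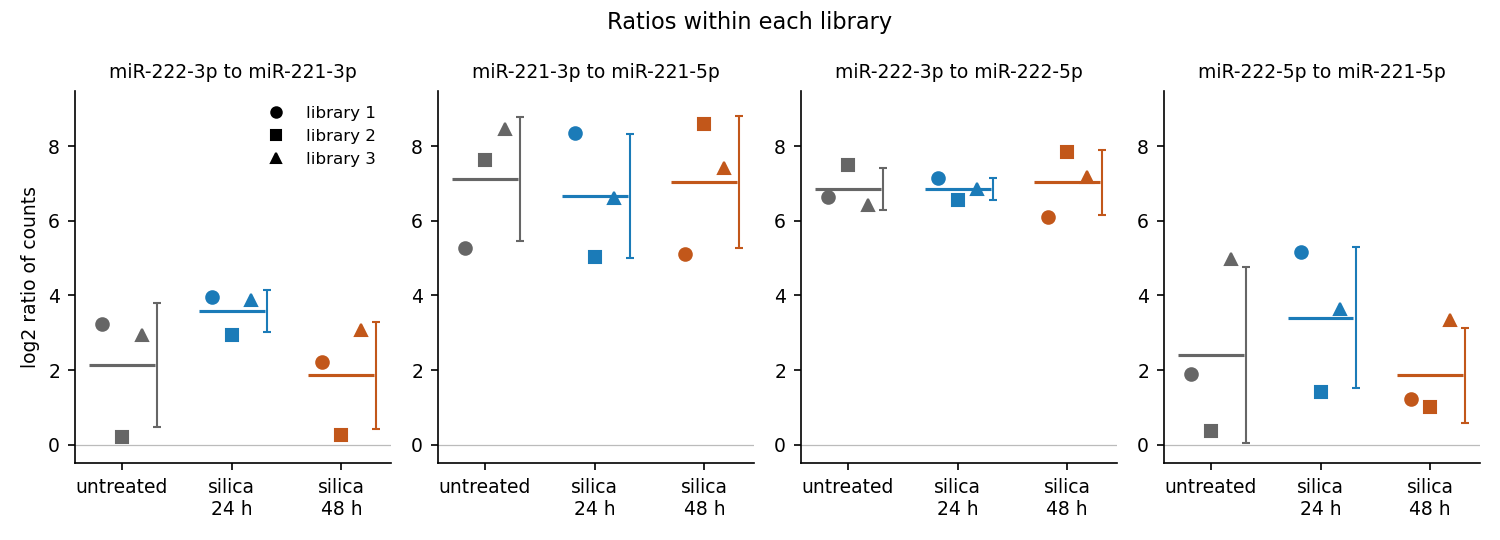
Log2 ratios of counts between pairs of members in each library, with the group mean (line) and 1 SD (bar, n = 3). Library 2 of the untreated and of the 48 h group is lowest for miR-222-3p to miR-221-3p (0.21 and 0.26) and highest for miR-222-3p to miR-222-5p (7.49 and 7.84).

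The tables also list an Rfam family row for mir-221 under the class of precursors, a count separate from the mature rows. The sources used here do not state how reads were divided between this row and the mature ones. The row held 113642, 96534 and 128026 counts in untreated, 80745, 81472 and 47249 at 24 h and 71586, 206987 and 120759 at 48 h. Per 1000000 counted reads it was 7520, 6720 and 11400 in untreated and 7410, 5650 and 6130 at 24 h. At 48 h it was 6260, 11100 and 10500, and the groups overlapped. Per 100 mature counts of the 4 members the row was 42.1, 32.8 and 51.5 in untreated, 28.9, 25.8 and 30.3 at 24 h and 35.8, 31.8 and 44.1 at 48 h. In this ratio the 24 h libraries were the lowest 3 of the 9, with a mean of 28.3 ± 2.32 against 42.1 ± 9.35 for untreated and 37.2 ± 6.31 for 48 h (SD, n = 3).

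The ratio to mature counts was chosen after the files were seen. The two-sided exact permutation p was 0.1 for 24 h against untreated and 0.1 for 48 h against 24 h, the smallest that 3 libraries against 3 can give, and 0.6 for 48 h against untreated. Of 22 families with at least 10 counts of each kind in every library, 2, or 9.09%, were lower at 24 h than in untreated with no overlap, and 9.09% were higher at 48 h than at 24 h in the same way. Leaving out any 1 library kept the 24 h mean below the untreated one, with differences of -18.4 to -9.09 per 100 mature counts.

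Among 139 other miRNAs with a mean of at least 100 CPM, the level of miR-222-3p over the 9 libraries was most like that of miR-122-5p, a liver miRNA (Pearson r of log2 CPM = 0.953). It was followed by miR-191-3p (0.875), miR-183-5p (0.869), miR-99b-5p (0.869) and let-7d-3p (0.867). miR-122-5p was at 926, 255 and 1296 CPM in untreated, 1951, 1253 and 2257 CPM at 24 h and 956, 407 and 1087 CPM at 48 h. As for miR-222-3p, the 24 h libraries 1 and 3 were its highest and untreated library 2 its lowest.

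miR-221-3p was most like miR-210-3p, a hypoxia-induced miRNA (r = 0.971), miR-29c-3p of the collagen-targeting miR-29 family (0.970), the cell cycle regulator miR-15b-5p (0.970), and miR-17-5p (0.965) and miR-19b-3p (0.964) of the miR-17 to miR-92a cluster. miR-15b-5p was at 1421, 6937 and 1697 CPM in untreated, 1136, 2333 and 1582 CPM at 24 h and 3183, 6235 and 1819 CPM at 48 h. Without untreated library 2 and 48 h library 2, r over the other 7 libraries was 0.766, 0.846, 0.916, 0.750 and 0.644 in the order named, lower for all 5. For the 5 most like miR-222-3p it was 0.899, 0.766, 0.542, 0.913 and 0.877, higher than over all 9 for miR-99b-5p and let-7d-3p and lower for the other 3. The libraries share their scaling, and these values describe 9 libraries only.

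The guides of the cluster were unlike each other, with r = -0.788 over the 9 libraries and -0.465 over the other 7. Of 143 miRNAs with a mean of at least 100 CPM, 36 (25.2%) had untreated library 2 and 48 h library 2 as their highest, miR-221-3p among them, and 28 (19.6%) had both as their lowest, among them miR-222-3p and miR-222-5p. The step for miR-221-3p was moderate among the 36: the lower of those 2 libraries was 2.31-fold above the highest of the other 7, the seventeenth largest step, where the largest, that of miR-33-5p, was 7.41-fold.

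**Figure D4:**
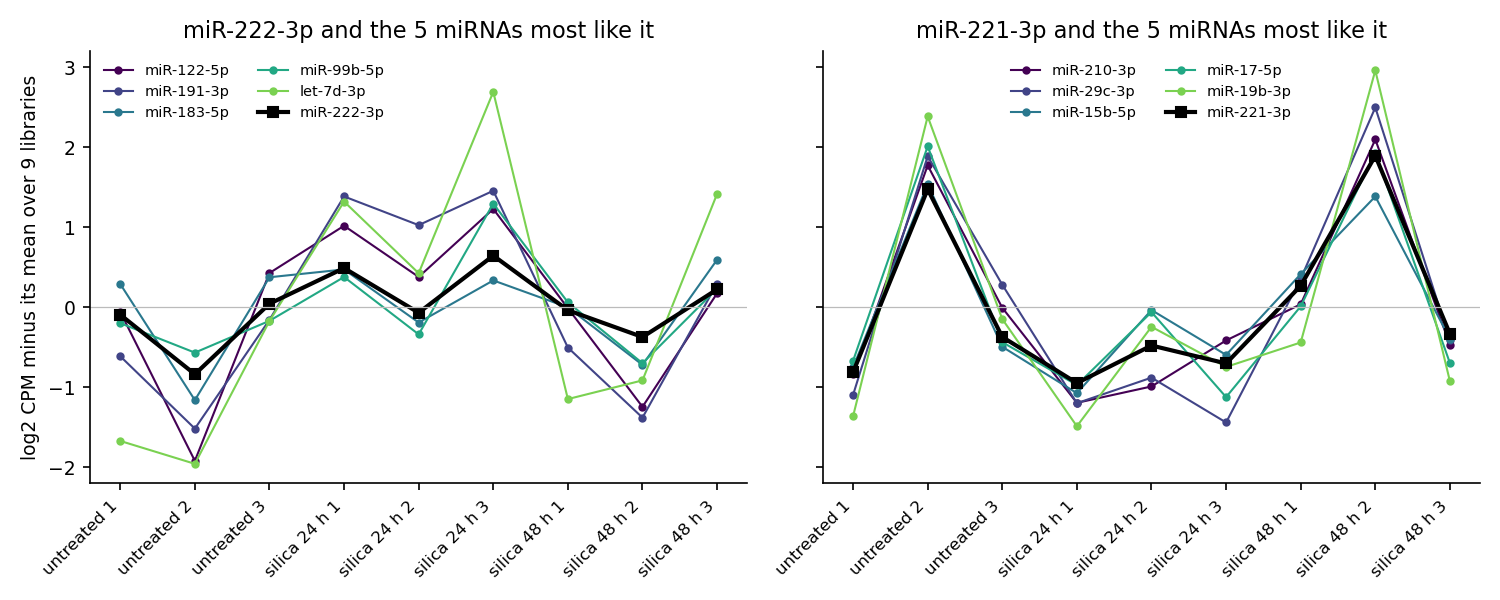
Log2 CPM minus its mean over the 9 libraries for miR-222-3p (left) and miR-221-3p (right), in black, with the 5 miRNAs most like each; lines join libraries only to guide the eye. miR-221-3p and its 5 companions are highest in untreated 2 and 48 h 2, and miR-222-3p is lowest there.

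A list of 15 miRNAs known to be induced in inflamed macrophages was set beside the cluster. Of these, 14 were listed and 12 tested, and 0 passed in any comparison (edgeR, adjusted over all 453). At 24 h against untreated 5 were higher and 7 lower, with a median log2 fold change of -0.12 against -0.07 over all miRNAs. At 48 h against untreated 6 were higher and 6 lower (median -0.02 against 0.03), and between 48 h and 24 h 8 were higher and 4 lower (0.11 against 0.14). The median at 24 h was 0.04 under upper-quartile scaling and that at 48 h was 0.01, so that neither sign held. The median over all miRNAs was then 0.05 and 0.09 in the same comparisons, so the list medians stayed below it.

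Values of 3 members of that list are given for scale. miR-155-5p, a promoter of inflammatory signalling, was at 800 ± 93.4, 760 ± 169 and 841 ± 215 CPM for untreated, 24 h and 48 h (SD, n = 3). miR-146a-5p, a brake on the same signalling, was at 53784 ± 29658, 45494 ± 5707 and 49860 ± 20416 CPM, close to the level of miR-222-3p. miR-210-3p, the miRNA most like miR-221-3p, was at 216 ± 201, 73.6 ± 21.5 and 262 ± 257 CPM; its log2 fold change was -1.56 ± 0.83 at 24 h against untreated (SE; edgeR adjusted p = 0.543) and 1.83 ± 0.84 at 48 h against 24 h (edgeR adjusted p = 0.458).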

How the data were processed

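Per the labels' protocols, exosomes were collected by ultracentrifugation, RNA was taken with Trizol and small RNA libraries followed the BGISEQ-500 protocol. Trim Galore, Bowtie, HTSeq and the build mm10 are named in the submitters' processing notes, without versions. The deposited tables give a count of reads per small RNA, which was analysed here, and a second column that the file headers call TPM but which is the authors' RPM (count per 1000000 counted reads, matched within 0.005), not tested. The sources used here do not state how the authors assigned reads that match several miRNAs. When set side by side without gaps, miR-221-3p and miR-222-3p differ at 12 of 23 positions. Both hold a shared run of bases near the 3′ end at shifted places, so this count includes differences that a gap would remove. How well reads of the guides were told apart was not tested.

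Mature rows absent from a table were taken as 0. edgeR 4.0.16 (R 4.3.3) was fitted to all 9 libraries with filterByExpr (minimum count 10), TMM, a quasi-likelihood test with no block and 6 residual degrees of freedom; p-values are Benjamini-Hochberg adjusted over 453 miRNAs with a threshold of 0.05. The code was tested on simulated data. Ratios used a pseudocount of 0.5 counts and exact permutation tests (SciPy 1.17.1, 12 tests). All 4 members are named; likeness is Pearson's r of log2 CPM with a prior count of 2, and the 5 highest are named. Other miRNAs were named after their values were seen. The members, lists and tests were chosen with earlier results of these data known.

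Deviations from the group means were correlated between same-numbered libraries for 24 h with untreated (r = 0.136, 0.439 and 0.149) and for 48 h with untreated (0.152, 0.636 and 0.315). Between 48 h and 24 h they were correlated for numbers 2 and 3 (0.289 and 0.253) but not for number 1 (-0.0679). Some libraries with different numbers were correlated as highly as the weaker of these, 24 h library 3 with untreated library 1 at 0.16 and 48 h library 3 with untreated library 1 at 0.36. Most other pairs with different numbers had a negative r. Deviations from a mean of 3 libraries cancel out, so a positive r for some pairs pushes others below it. The negative values thus add nothing to the hint of pairing. The labels state no pairing, so the positive r of same-numbered libraries is only a hint from the data. The block was fitted as an alternative. Libraries of a group were no duplicates (chi-square per degree of freedom 261 to 3150). Alternatives were other scalings, filters and tools (DESeq2 1.42.0, limma 3.58.1), 2-group fits, the replicate block and leaving out libraries.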

Additional observations from a re-analysis of the deposited data

How the results depend on the processing

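Of 456 alternative values of 33 results, 43 fold changes and ratio differences changed sign, as did 2 medians of the inflammation list (0.04 at 24 h and 0.01 at 48 h, upper-quartile factors), and 0 gained a call; members called stayed at 0 in every comparison under every setting. With the replicate number as a block, edgeR called 3, 0 and 3 miRNAs at 24 h, 48 h and between the times where it called 0 without, but no member (lowest adjusted p of a member 0.228, 0.982 and 0.154), and the log2 fold change of miR-221-3p at 24 h was -0.74; without a filter 7, 1 and 16 miRNAs were called. The libraries numbered 2 of untreated and 48 h were left out together after the values were seen.

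Signs changed as follows, and the cause was not tested. The log2 fold change of miR-221-5p at 24 h was 0.05 with upper-quartile factors, 0.34 with the replicate block and 0.24 without both libraries 2. That of miR-222-5p at 48 h was -0.05 with mature totals, -0.04 with all counted reads, -0.09 with at least 10 counts in every library of a group and -0.0027 in limma-voom. The 24 h difference in the log2 ratio of miR-222-3p to miR-222-5p was 0.22 by medians and 0.31 without both libraries 2, and that of miR-222-5p to miR-221-5p was -0.02 without both. Between 48 h and 24 h, without both, the difference was -0.39 for miR-221-3p to miR-221-5p and -0.20 for miR-222-3p to miR-222-5p.

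Without 1 library at a time, the 24 h log2 fold change of miR-221-5p ran from -1.45 to 0.39, and the 24 h ratio differences from -1.40 to 0.35 (miR-221-3p to 5p), -0.21 to 0.31 (miR-222-3p to 5p) and -0.02 to 2.28 (5p to 5p). At 48 h the log2 fold changes ran from -0.02 to 0.34 (miR-222-3p), -0.52 to 1.52 (miR-221-3p), -0.48 to 0.44 (miR-222-5p) and -0.50 to 0.97 (miR-221-5p). The 48 h ratio differences ran from -1.24 to 0.52 (miR-222-3p to miR-221-3p), -1.01 to 0.89 (miR-221-3p to 5p), -0.21 to 0.66 (miR-222-3p to 5p) and -1.57 to 0.74 (5p to 5p). Without a change of sign, miR-222-5p ran from 0.10 to 0.75 at 24 h and from -0.90 to -0.03 between the times. Other values between the times ran from -0.39 to 2.08 (miR-221-5p), -0.43 to 1.35 (miR-221-3p to 5p) and -0.20 to 0.66 (miR-222-3p to 5p).

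With all counted reads as library size the median log2 fold change over all miRNAs moved from -0.07, 0.03 and 0.14 to -0.21, 0.14 and 0.36 in the 3 comparisons, and with upper-quartile factors to 0.05, 0.09 and 0.01. At 51 to 353729 counts per member and library, counting error is small beside the spread between libraries.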
